A study of Mus musculus with 8 samples.

Results

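The genes described here are the Hox cluster genes, taken as every row of the count table whose symbol is Hoxa, Hoxb, Hoxc or Hoxd followed by a number. There were 39 such rows among 30419 in the table. Of these, 28 had 10 or more counts in 2 or more libraries and are called expressed, against 12296 rows of the whole table that passed the same minimum. RNA of early-passage mouse embryonic fibroblasts, mixed connective tissue cells grown from E13.5 embryos, was sequenced in 8 libraries, and the values are read counts per gene name. The WT cells were Dino+/+ and the mutant cells Dino lox/lox, which the labels call DINO mutant (DINO loxP/loxP) without naming a recombinase. Dino is a long noncoding RNA gene next to Cdkn1a that is activated by p53. For 8 h the cells of each genotype were kept with vehicle (control) or with doxorubicin at 0.2 µg/mL, an agent that poisons topoisomerase and breaks DNA, and each of the 4 groups had 2 libraries, A and B. The labels do not say whether A and B came from separate embryos or cultures, so p-values measure only the spread between these libraries, which may be technical. Where a pair of values is given for a group, library A comes before library B.

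Hox genes encode transcription factors that bind DNA through a homeodomain and give cells their address along the body and limb axes. In mammals they lie in 4 clusters, and within a cluster their order follows the body axis: low-numbered (anterior) genes are used toward the head and high-numbered (posterior) genes toward the tail and the far end of the limbs. Genes with the same number in different clusters are paralogs, descended from a common ancestral gene. Fibroblasts in culture keep much of the Hox pattern of the place they came from, so a culture from a whole embryo holds a mixture of such patterns, and in bulk RNA fewer cells of a type and less RNA per cell cannot be told apart.

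In the mouse annotation used here (GENCODE M21), the Hoxa cluster lies on chromosome 6, Hoxb on chromosome 11, Hoxc on chromosome 15 and Hoxd on chromosome 2. In each cluster all genes are on the same strand and their 3′ ends stand in order of paralog number. Promoter sequences from RefSeq (GRCm38.p6, 250 bases before to 50 after a start) were matched by symbol for 22 of the 39 genes, of which 14 were expressed. The following 4 are shown because their genes stand for the response classes described further on: Hoxa5 rose with doxorubicin, Hoxd13 and Hoxd8 fell, and Hoxd10, which lies between those Hoxd genes, passed no test of the drug. Hoxa5 is chr6:52204538-52204837 on the minus strand, Hoxd13 chr2:74667975-74668274, Hoxd10 chr2:74691641-74691940 and Hoxd8 chr2:74704365-74704664, the last 3 on the plus strand. Letters in capitals mark the motif matches named after the sequences, on either strand.
Hoxa5: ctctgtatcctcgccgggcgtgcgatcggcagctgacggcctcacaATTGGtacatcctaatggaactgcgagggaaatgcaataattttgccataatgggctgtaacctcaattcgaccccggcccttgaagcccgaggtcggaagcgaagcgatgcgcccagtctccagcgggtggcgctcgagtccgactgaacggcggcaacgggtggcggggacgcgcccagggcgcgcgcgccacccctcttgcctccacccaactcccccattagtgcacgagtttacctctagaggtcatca
Hoxd13: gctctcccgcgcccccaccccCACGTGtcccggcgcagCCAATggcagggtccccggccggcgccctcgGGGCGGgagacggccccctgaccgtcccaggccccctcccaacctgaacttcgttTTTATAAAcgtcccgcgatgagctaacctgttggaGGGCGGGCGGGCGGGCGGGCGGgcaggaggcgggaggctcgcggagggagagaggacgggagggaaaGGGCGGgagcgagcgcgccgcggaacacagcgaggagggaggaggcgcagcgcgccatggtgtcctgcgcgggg
Hoxd10: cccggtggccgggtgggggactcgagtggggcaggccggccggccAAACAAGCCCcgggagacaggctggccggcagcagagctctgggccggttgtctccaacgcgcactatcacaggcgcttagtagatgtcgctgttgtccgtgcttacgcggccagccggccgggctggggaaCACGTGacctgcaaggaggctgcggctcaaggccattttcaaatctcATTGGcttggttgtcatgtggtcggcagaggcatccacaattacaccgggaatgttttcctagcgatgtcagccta
Hoxd8: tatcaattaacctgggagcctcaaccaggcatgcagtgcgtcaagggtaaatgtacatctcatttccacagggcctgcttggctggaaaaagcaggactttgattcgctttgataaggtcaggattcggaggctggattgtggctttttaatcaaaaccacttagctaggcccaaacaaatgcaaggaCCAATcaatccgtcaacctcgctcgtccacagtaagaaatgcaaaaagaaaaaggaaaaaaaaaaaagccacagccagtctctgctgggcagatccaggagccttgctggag

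The motifs searched on both strands were the TATA box (TATAAA), the CCAAT box (CCAAT), the GC box (GGGCGG), the Hox-Pbx site (TGATTNAT), the E-box (CACGTG) and the p53 decamer, and none of these words contains another. The Hoxd13 promoter held overlapping TATA boxes on both strands, a CCAAT box, an E-box and several GC boxes, most of which overlap each other, and its GC content was 74.3%. The Hoxa5 and Hoxd8 promoters held a CCAAT box only, at GC contents of 61.7% and 46.7%. The Hoxd10 promoter held a CCAAT box, an E-box and a p53 decamer, at a GC content of 62.7%, while the median over all 32851 promoters was 52.7%. CCAAT was present in 15 of the 24 Hox promoter sequences (62.5%) and in 37.4% of all promoters. The p53 decamer was in 3 of the 24 (12.5%, Hoxa11, Hoxd10 and Hoxd4) and in 8.36% of all promoters. These matches describe the letters only, in windows that may not be the starts used in these cells.

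Total counts per library ran from 25482805 to 33285171, and a count of 0 allows up to 3 counts, or 0.0879 to 0.120 CPM (counts scaled to a common library size with TMM factors), which covers counting error only. The counts of A and B scattered most in WT with doxorubicin, where a chi-square divided by its degrees of freedom came to 17.3, against 5.34 to 6.09 in the other groups. All 12 fibroblast markers were expressed, with sums of 5733 to 6292 CPM in every library, while Myod1, Cdh1, Pecam1 and the other defining markers of muscle, epithelial and endothelial cells were under 1 CPM in every group, apart from Flt1, Krt19, Acta1 and a few others.

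Which Hox genes were expressed depended on cluster and position. In cluster a 7 genes passed the minimum, among them Hoxa2 to Hoxa5, Hoxa10 and Hoxa11, and Hoxa6, Hoxa7, Hoxa9 and Hoxa13 did not. In cluster b the 8 genes from Hoxb2 to Hoxb9 passed. In cluster c, Hoxc4, Hoxc5, Hoxc6, Hoxc8, Hoxc9, Hoxc10 and Hoxc13 passed, and in cluster d the unbroken stretch from Hoxd8 to Hoxd13. Hoxb1, Hoxc11 and Hoxc12 had no count in any library. The other 8 genes that failed had at most 14 counts in a library. Hoxa9 was the nearest to the minimum, with 10 or more counts in 1 library and 48 counts in all, and Hoxb8, with 89 counts in all, was the lowest gene that passed. Hoxc13 was thus expressed beside a pair of cluster neighbours with no counts.

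Hoxa10 and Hoxd13, posterior genes with roles in uterus, limb and digit development, dominated Hox expression. Together they took 77.8% and 77.5% of all Hox counts in the WT control libraries. To compare genes, levels were divided by the length of merged exons of protein-coding transcripts in GENCODE M21, untranslated parts included. The authors may have counted on another annotation. In WT control cells Hoxa10 stood at 144 ± 4.56 CPM per kb (SD, n = 2, as for all means here) and Hoxd13 at 64.7 ± 6.73 CPM per kb. Hoxc8, at 15.1 ± 1.23, and Hoxd10, at 13.6 ± 1.89 CPM per kb, came next and lay within each other's spread, ahead of Hoxb3 at 11.2 ± 0.208 CPM per kb. Hoxa3, Hoxd11, Hoxb2 and Hoxa5 followed between 4.28 and 4.84 CPM per kb. The lowest expressed gene per kb was Hoxb8, at 0.224 CPM per kb. The labels name both an exome-capture kit and 3′ end sequencing, and with the latter counts may not scale with length. On the CPM scale Hoxa10 and Hoxd13 were also the highest genes in every library.

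**Figure D1:**
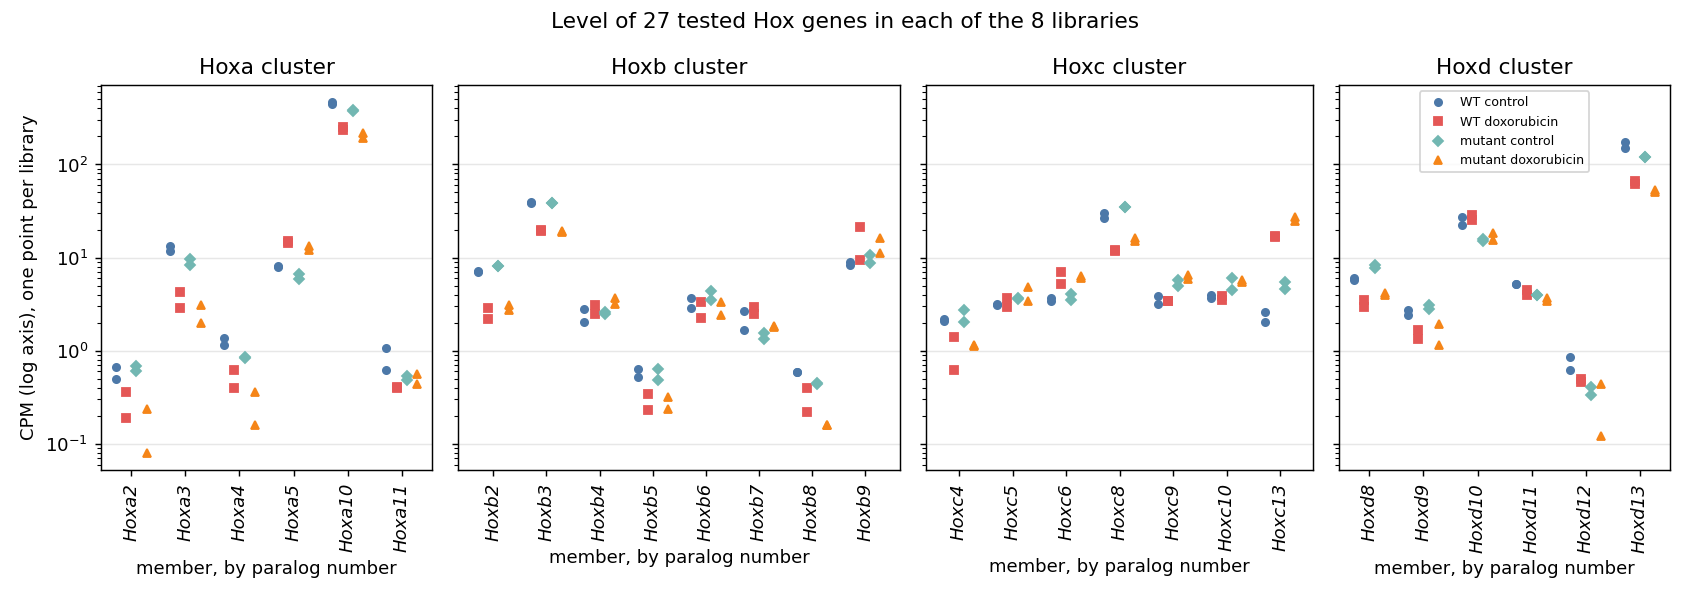
Level of 27 of the 28 expressed Hox genes in CPM on a log axis, by cluster and paralog number, with 1 point per library and colours and shapes for the 4 groups. Hoxa10 and Hoxd13 stand above all others, and Hoxc13 is the gene with the widest gap between treated and control libraries.

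The first comparison asked how the Hox genes responded to doxorubicin. In WT cells 11 of the 28 expressed genes were lower and 4 higher by edgeR's quasi-likelihood test at an adjusted p under 0.05, and 13 did not pass. Over all rows tested 27.9% were called lower and 29.3% higher, 57.2% in all, beside Hox shares of 39.3% lower and 14.3% higher. The median log2 fold change was -0.67 over the 28 genes and 0.01 over all rows. In mutant cells 13 of the 28 fell (46.4%, background 25.7%), 3 rose (10.7%, background 28.3%) and 12 did not pass, where 54% of all rows were called, and the median was -0.62 against 0.01 over all rows. The 10 genes that fell in both genotypes were Hoxa3, Hoxa4, Hoxa10, Hoxb2, Hoxb3, Hoxc4, Hoxc8, Hoxd8, Hoxd9 and Hoxd13, and the 3 that rose in both were Hoxa5, Hoxc6 and Hoxc13. No Hox gene was called in opposite directions. Groups are compared over 2 libraries each, and in 20 (WT) and 23 (mutant) of the 28 genes treated and control libraries did not overlap, where this held for 77.6% and 76.9% of all rows tested.

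**Figure D2:**
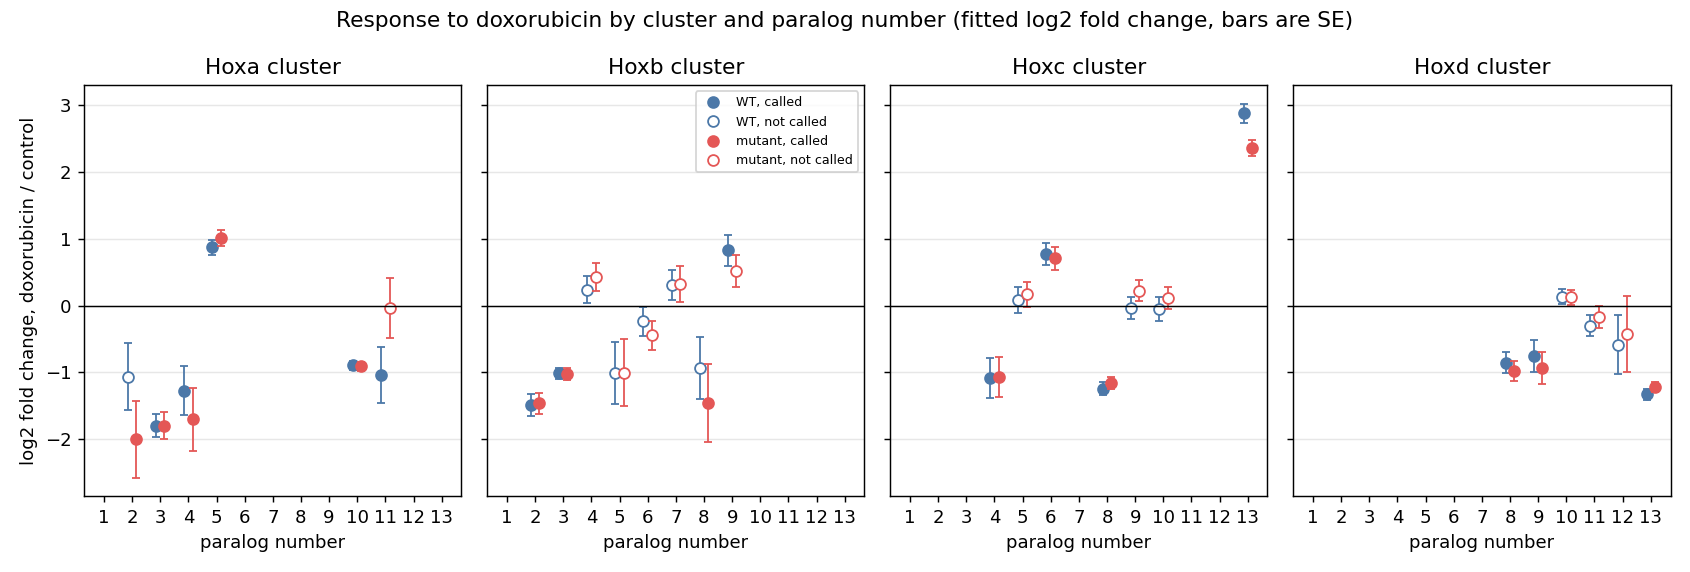
Fitted log2 fold change of doxorubicin over control against paralog number in each cluster, in WT and mutant cells, with SE bars and filled points for genes that passed the test. The anterior genes plotted lie below 0 in both genotypes, while Hoxa5, Hoxc6 and Hoxc13 lie above 0 in both genotypes.

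Hoxa10 was the most abundant gene that fell. It stood at 463 and 443 CPM in control WT cells, 251 and 237 CPM in WT with doxorubicin, 377 and 388 CPM in mutant control and 192 and 216 CPM in mutant with doxorubicin. All 4 treated libraries were below all 4 controls, with log2 fold changes of -0.89 ± 0.07 (SE) in WT (adjusted p = 5.03e-10) and -0.91 ± 0.07 in mutant cells (4.93e-10). Hoxd13, which patterns the digits, was at 173 and 149 CPM in WT control, 66.5 and 61.5 CPM in WT with doxorubicin, 122 and 120 CPM in mutant control and 53.1 and 50.9 CPM in mutant with doxorubicin. Its treated libraries were likewise all below its controls, and it changed by -1.33 ± 0.08 in WT (5.60e-12) and -1.22 ± 0.08 in mutant cells (3.76e-11). The summed level of all Hox genes, which was not tested, was 790 ± 38.4 CPM without and 459 ± 27.4 CPM with the drug in WT, and 681 ± 6.88 and 410 ± 18.95 CPM in mutant cells. Their joint share of Hox counts was 66.4% and 67.9% in WT and 61.8% and 63.1% in mutant cells with doxorubicin, against 73.8% and 74.2% in mutant control.

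**Figure D3:**
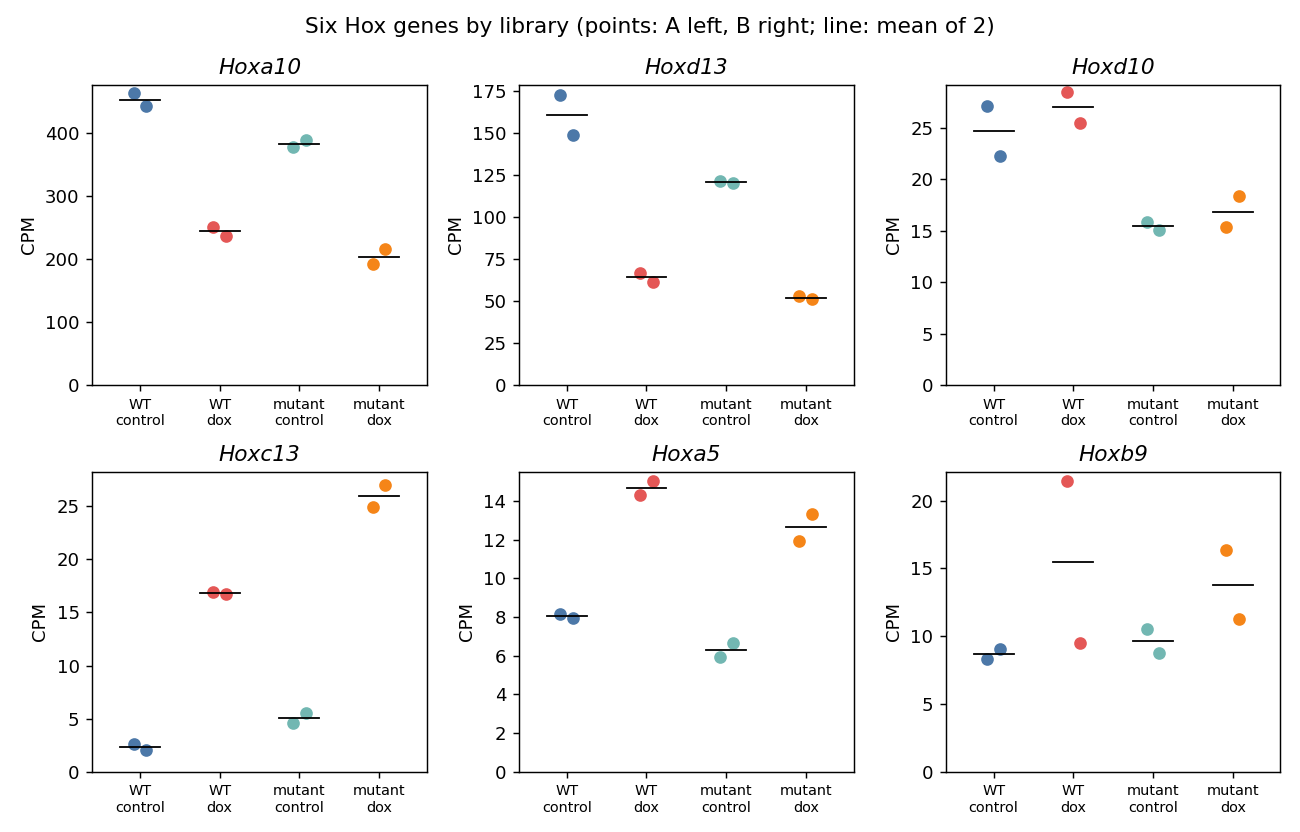
CPM of Hoxa10, Hoxd13, Hoxd10, Hoxc13, Hoxa5 and Hoxb9 in each library, on axes from 0, with a line at the mean of 2 libraries; these genes were chosen after their values were seen. Hoxa10 and Hoxd13 fall with doxorubicin, Hoxc13 and Hoxa5 rise, Hoxd10 differs by genotype and Hoxb9 is high in 1 of the WT doxorubicin libraries.

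The anterior genes, paralogs 1 to 3, which pattern the hindbrain, branchial arches and neck, had log2 fold changes below 0 in all 5 members that were expressed. Of all 12296 rows, 6088 were below 0 in WT and 6072 in mutant cells. In WT 60% of the 5 were called, near the 57.2% of all rows, and in mutant cells 100% (54% of all rows). Hoxa3 was at 13.3 and 11.8 CPM in WT control, 2.88 and 4.29 CPM in WT with doxorubicin, 8.23 and 9.58 CPM in mutant control and 2.00 and 3.13 CPM in mutant with doxorubicin. It fell by 1.80 ± 0.17 on the log2 scale in WT and by 1.79 ± 0.20 in mutant cells. Hoxb2 went from 7.02 and 7.12 CPM to 2.85 and 2.19 CPM in WT and from 8.09 and 8.06 CPM to 2.72 and 3.13 CPM in mutant cells (-1.49 ± 0.16 and -1.46 ± 0.16). Hoxb3 went from 39.8 and 38.8 CPM to 19.7 and 19.2 CPM in WT and from 38.4 and 39.0 CPM to 19.3 and 18.9 CPM in mutant cells (-1.01 ± 0.09 and -1.02 ± 0.09). In all 3 genes the treated libraries lay below the controls of the same genotype, and the treated libraries of WT and mutant cells overlapped. Hoxa2 was near the floor and passed only in mutant cells, from 0.686 and 0.609 CPM to 0.0801 and 0.237 CPM (-1.99 ± 0.57, adjusted p = 0.00570), while in WT it went from 0.668 and 0.498 CPM to 0.365 and 0.188 CPM. Without mutant doxorubicin library A its adjusted p in mutant cells was 0.0783.

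Central genes, paralogs 4 to 8, which pattern the neck and trunk, moved in both directions, and the direction differed between near neighbours. Of 12 expressed members 4 fell and 2 rose in WT cells, and 5 fell and 2 rose in mutant cells. The shares called, 50% and 58.3%, were near those of all rows (57.2% and 54%). In cluster a, Hoxa5, needed for the lung and the cervical skeleton, stood at 8.13 and 7.94 CPM in WT control and 14.3 and 15.1 CPM in WT with doxorubicin. In mutant cells it went from 5.93 and 6.63 CPM to 11.9 and 13.3 CPM. All treated libraries were above all controls, and the log2 fold changes were 0.87 ± 0.12 in WT (adjusted p = 1.31e-06) and 1.01 ± 0.12 in mutant cells (4.24e-07). Its neighbour Hoxa4 fell from 1.37 and 1.14 CPM to 0.398 and 0.626 CPM in WT (-1.28 ± 0.37) and from 0.857 and 0.846 CPM to 0.361 and 0.158 CPM in mutant cells (-1.70 ± 0.46). Its call was lost without WT doxorubicin A (adjusted p = 0.0627) and, in mutant cells, without mutant doxorubicin B (0.0668). The rise of Hoxa5 thus lay between the falls of Hoxa3 and Hoxa4 on one side and genes under the minimum on the other. In GENCODE M21 the span of Hoxa3 covers Hoxa4, Hoxa5 and Hoxa6 on the same strand, and the antisense gene Hoxaas3 overlaps Hoxa5. How the authors' counting treated such reads is not given in the sources used here.

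In cluster c neighbours also differed in direction. Hoxc4 fell from 2.08 and 2.17 CPM to 1.39 and 0.626 CPM in WT (-1.08 ± 0.30) and from 2.02 and 2.74 CPM to 1.12 and 1.15 CPM in mutant cells (-1.07 ± 0.30). The calls were lost without WT doxorubicin B (adjusted p = 0.0973) and without mutant control B (0.0706). Hoxc5, between 2.94 and 4.79 CPM in all libraries, passed in neither genotype. Hoxc6, which is used in the thorax, rose from 3.38 and 3.69 CPM to 6.93 and 5.17 CPM in WT (0.77 ± 0.17, adjusted p = 0.000484) and from 3.53 and 4.06 CPM to 6.33 and 6.05 CPM in mutant cells (0.70 ± 0.17, adjusted p = 0.00134). Hoxc8, a thoracic gene and the most abundant of the cluster, fell from 29.9 and 26.6 CPM to 11.8 and 12.0 CPM in WT (-1.25 ± 0.10) and from 35.2 and 34.6 CPM to 15.2 and 16.1 CPM in mutant cells (-1.16 ± 0.10). Its paralog Hoxd8 fell too, from 6.02 and 5.74 CPM to 2.95 and 3.54 CPM in WT (-0.85 ± 0.15) and from 7.79 and 8.29 CPM to 3.97 and 4.16 CPM in mutant cells (-0.98 ± 0.15). Hoxb8, the third of that paralog group, was under 0.6 CPM in each library and passed only in mutant cells, from 0.446 and 0.440 CPM to 0.160 and 0.158 CPM (-1.45 ± 0.58, adjusted p = 0.0401), where it was lost on leaving out any of the 4 mutant libraries (0.0982 to 0.129). In WT it went from 0.594 and 0.586 CPM to 0.398 and 0.219 CPM. Hoxb4, Hoxb5, Hoxb6 and Hoxb7, at 0.232 to 4.37 CPM, passed in neither genotype, although Hoxb7 passed in WT without WT control B (0.70, adjusted p = 0.0468) and Hoxb6 in mutant cells without mutant doxorubicin B (-0.70, adjusted p = 0.0387). In M21 the span of Hoxc5 covers Hoxc6, Hoxc8, Hoxc9 and Hoxc10, so reads of these genes could also be shared.

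Posterior genes, paralogs 9 to 13, which pattern the lumbar and tail region, limbs and urogenital tract, held the strongest rise. Hoxc13, which is known for its role in hair and nail formation, had 70 and 69 counts in the WT control libraries and 510 and 533 with doxorubicin, or 2.60 and 2.02 CPM against 16.9 and 16.7 CPM. In mutant cells it had 135 and 163 counts without and 623 and 682 counts with the drug, or 4.63 and 5.52 CPM against 24.96 and 26.99 CPM. All 4 treated libraries lay above all 4 controls. The rise was 7.27-fold in WT (log2 fold change 2.88 ± 0.14, adjusted p = 2.09e-13) and 5.12-fold in mutant cells (2.35 ± 0.12, adjusted p = 7.61e-13). In M21 no other gene overlaps Hoxc13. Its paralog Hoxd13 fell, as given above, so the expressed members of paralog group 13 were called in opposite directions in both genotypes.

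The other posterior genes moved less or not at all. Hoxd9 fell from 2.71 and 2.40 CPM to 1.33 and 1.69 CPM in WT (-0.75 ± 0.24, adjusted p = 0.0108) and from 3.09 and 2.78 CPM to 1.92 and 1.15 CPM in mutant cells (-0.93 ± 0.24, adjusted p = 0.00282). It lost the WT call without WT control A (0.0668) or WT doxorubicin A (0.0993) and with DESeq2 (0.0524), and the mutant call without mutant doxorubicin B (0.0807). Hoxa11 had at most 29 counts in a library and passed only in WT, from 1.08 and 0.615 CPM to 0.398 and 0.407 CPM (-1.04 ± 0.41, adjusted p = 0.0378). In mutant cells it was at 0.480 and 0.542 CPM without and 0.561 and 0.435 CPM with the drug. The WT call was lost without WT control A (0.329) or either WT doxorubicin library (0.116 and 0.107), with DESeq2 (0.149) and with limma-voom (0.0514). Hoxb9 was at 8.35 and 9.06 CPM in WT control and at 21.5 and 9.49 CPM in WT with doxorubicin, so library A alone stood apart. Its call in WT (0.82 ± 0.24, adjusted p = 0.00512) was lost without that library (log2 fold change 0.13, adjusted p = 0.593) and with DESeq2 (0.127). In mutant cells it went from 10.6 and 8.73 CPM to 16.3 and 11.2 CPM (0.52 ± 0.24, adjusted p = 0.0768) and did not pass, but it passed there with the library letter as a replicate block (0.0348) with the 4 mutant libraries alone (0.0120), with no filter (0.000360), without either WT doxorubicin library (0.00489 and 0.00415) or without mutant doxorubicin B (0.0184).

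Hoxd10, at 27.1 and 22.2 CPM in WT control and 28.5 and 25.5 CPM in WT with doxorubicin, did not pass for the drug, nor did it in mutant cells, where it was at 15.9 and 15.1 CPM without and 15.3 and 18.3 CPM with it (0.13 ± 0.11 and 0.12 ± 0.12). In cluster d it stood between Hoxd9 and Hoxd13, which fell. Hoxd11, at 3.40 to 5.20 CPM, and Hoxd12, at 0.120 to 0.854 CPM, did not pass either. Hoxc9 and Hoxc10, between Hoxc8 and Hoxc13, had log2 fold changes from -0.05 to 0.22 and did not pass. Over the 28 genes the median log2 fold change in WT was -1.06 for anterior, -0.54 for central and -0.30 for posterior members, and in mutant cells -1.46, -0.72 and -0.04. Spearman's rho between paralog number and log2 fold change was 0.265 in WT and 0.379 in mutant cells, as a description over 28 genes that share libraries and clusters. The expressed anterior genes all lie in clusters a and b, so position and cluster cannot be told apart there.

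By cluster, the median log2 fold change in WT was -1.04 for the 7 expressed Hoxa genes, -0.58 for the 8 Hoxb genes, -0.04 for the 7 Hoxc genes and -0.67 for the 6 Hoxd genes. No Hoxd gene rose in either genotype. The summed level of cluster a went from 490 and 468 CPM to 272 and 260 CPM in WT, and that of cluster d from 215 and 186 CPM to 104 and 96.8 CPM. The sum of cluster c was 48.0 and 45.4 CPM without and 48.1 and 44.3 CPM with doxorubicin in WT, values that overlapped, while within it Hoxc13 rose and Hoxc8 fell.

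**Figure D4:**
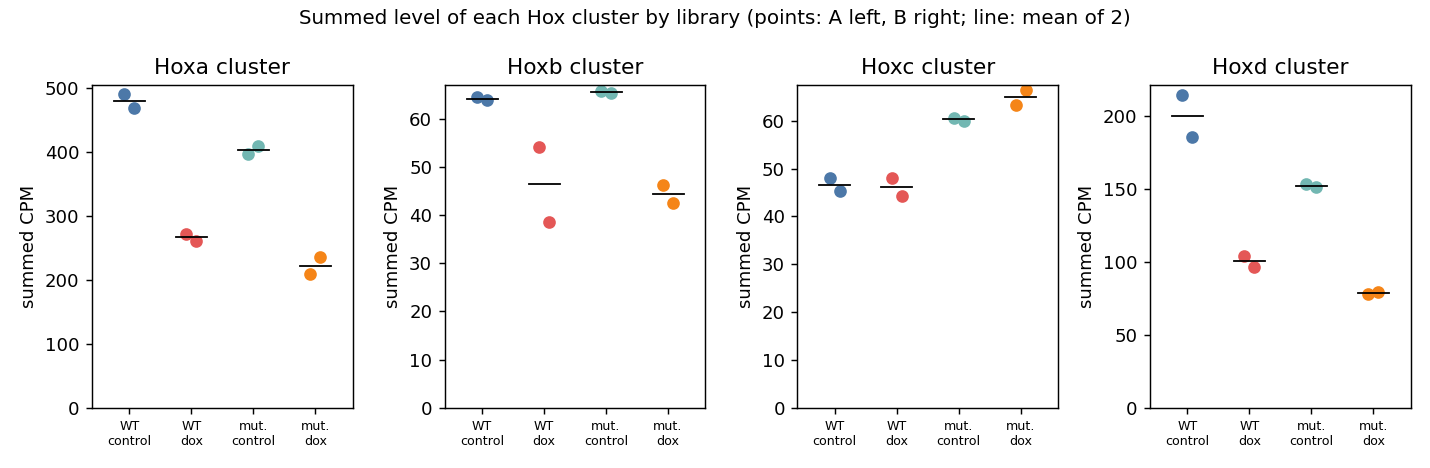
Summed CPM of all members of each Hox cluster in each library, with a line at the mean of 2 libraries. The sums of clusters a and d are lower in all treated than in all control libraries, and cluster c lies at 60.0 to 66.4 CPM in every mutant library against 44.3 to 48.1 CPM in every WT library.

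Whether the response of the Hox genes differed between genotypes was tested as an interaction. None of the 28 genes passed (background 0.0895% of all rows called, 0.0407% higher and 0.0488% lower in mutant cells), with adjusted p from 0.683 to 1.00. DESeq2 and limma-voom also called none, and 1 gene, Hoxc13, had an unadjusted p under 0.05. Its rise was smaller by 0.52 ± 0.20 on the log2 scale in mutant than in WT cells (adjusted p = 0.683). For Hoxa10, Hoxb3 and Hoxd13 the difference was -0.02 ± 0.10, -0.01 ± 0.12 and 0.11 ± 0.11, while for Hoxa2, Hoxa11 and Hoxb8 its SE was 0.79, 0.62 and 0.75, so large differences could not be detected there. The calls that Hoxa2, Hoxa11, Hoxb8 and Hoxb9 made in 1 genotype only are therefore not shown to differ between genotypes.

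The next comparison set mutant against WT cells without the drug. Hoxc8, Hoxc9 and Hoxc13 were higher and Hoxa10, Hoxd10 and Hoxd13 lower in mutant cells. Of the 28 genes, 3 were higher (10.7%, background 2.77%) and 3 lower (10.7%, background 3.17%), where 5.94% of all rows were called. Hoxc13 was at 4.63 and 5.52 CPM in mutant and 2.60 and 2.02 CPM in WT control libraries, 2.20-fold higher (log2 fold change 1.15 ± 0.16, adjusted p = 5.17e-05). Hoxc9 was at 5.80 and 4.94 CPM in mutant and 3.19 and 3.84 CPM in WT control (0.60 ± 0.16, adjusted p = 0.0286). Hoxc8, given above, was 1.23-fold higher (0.31 ± 0.09, adjusted p = 0.0459). All 7 expressed Hoxc genes had a log2 fold change above 0, from 0.10 to 1.15, but the other 4 did not pass. Of the lower genes, Hoxd10 was 1.59-fold lower (-0.67 ± 0.11, adjusted p = 0.000417), Hoxd13 1.33-fold lower (-0.41 ± 0.08, adjusted p = 0.00147) and Hoxa10 1.18-fold lower (-0.24 ± 0.07, adjusted p = 0.0426). In these 3 genes both mutant control libraries were below both WT controls. Control libraries of the genotypes did not overlap in 19 of the 28 genes, where this held for 45.1% of all rows tested.

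With doxorubicin, 4 of the 28 genes were higher in mutant cells (14.3%, background 3.93%) and 3 lower (10.7%, background 3.74%), where 7.67% of all rows were called, and all 6 genes called in control cells were called again in the same direction. The control and treated comparisons share no library, but they share the fit and its estimate of spread. The same cell preparations may lie behind both, so the repeat was not shown to be independent. Hoxc13, at 24.96 and 26.99 CPM against 16.9 and 16.7 CPM, was 1.55-fold higher (0.63 ± 0.11, adjusted p = 0.000519). Hoxc9 was at 6.57 and 5.94 CPM against 3.45 and 3.44 CPM (0.86 ± 0.16, adjusted p = 0.00134), and Hoxc8 differed by 0.40 ± 0.10 (adjusted p = 0.0174). The added gene was Hoxc10, at 5.81 and 5.42 CPM against 3.91 and 3.51 CPM (0.60 ± 0.17, adjusted p = 0.0315), which in control cells was at 5.97 and 4.47 CPM against 3.68 and 3.99 CPM. Hoxd10 (-0.68 ± 0.11, adjusted p = 0.000353), Hoxd13 (-0.30 ± 0.08, adjusted p = 0.0257) and Hoxa10 (-0.26 ± 0.07, adjusted p = 0.0259) were lower. Hoxc5, Hoxc6 and Hoxc4 were again above 0 and did not pass.

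**Figure D5:**
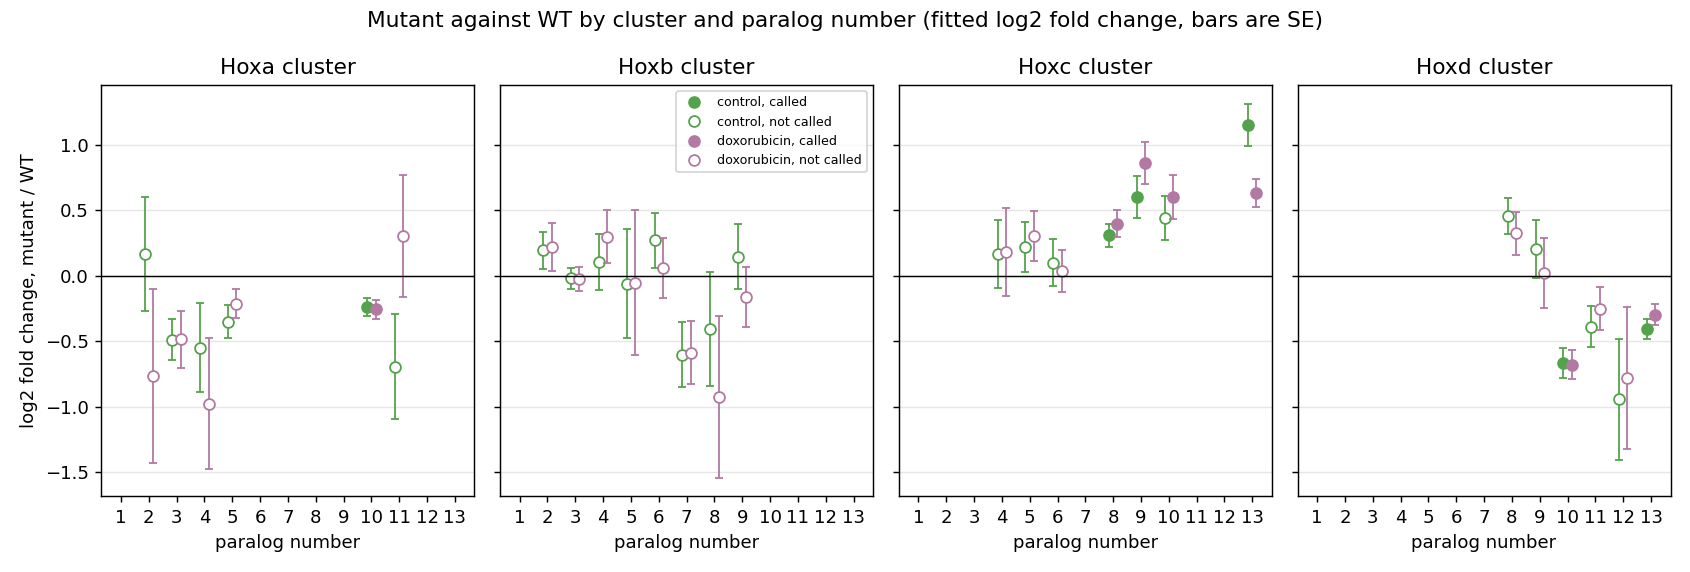
Fitted log2 fold change of mutant over WT against paralog number in each cluster, in control and doxorubicin cells, with SE bars and filled points for genes that passed the test. The 7 Hoxc genes lie above 0 in both conditions, Hoxd10 to Hoxd13 lie below 0 and Hoxd8 and Hoxd9 above it.

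Within cluster d the values differed by position, though not all passed. In control cells Hoxd8 was 1.37-fold higher in mutant cells, at 7.79 and 8.29 against 6.02 and 5.74 CPM (adjusted p = 0.0605), and Hoxd9 had a log2 fold change of 0.20 ± 0.22, while Hoxd11 and Hoxd12 had -0.39 ± 0.15 and -0.95 ± 0.47. In cluster a, Hoxa3 was 1.41-fold lower in mutant control cells (-0.49 ± 0.16, adjusted p = 0.0763). With only the 4 control libraries in the fit Hoxa3 (0.0144) and Hoxd8 (0.0421) passed. In cluster b no gene passed in either condition, except Hoxb9 with doxorubicin on leaving out WT doxorubicin B (-0.64, adjusted p = 0.0117), and Hoxb3 was nearly equal at 38.4 and 39.0 against 39.8 and 38.8 CPM. The difference between cluster c and the other clusters was not tested. The genotype calls of the less changed genes depended on the method and on single libraries. With no compared library left out, DESeq2 lost Hoxc8 (0.0909) and Hoxc9 (0.111) in control cells and Hoxc10 (0.105) with doxorubicin. Hoxa10 was lost in control cells with upper-quartile size factors (0.0657). With doxorubicin it was lost when only the 4 treated libraries were fitted (0.0608). In control cells Hoxa10, Hoxc8 and Hoxc9 each lost the call on leaving out any 1 of the 4 control libraries (adjusted p up to 0.315, 0.460 and 0.296), and Hoxd13 without WT control A (0.0528). With doxorubicin Hoxc10 lost it on leaving out any of the 4 treated libraries (up to 0.184), Hoxc8 and Hoxd13 without WT A or either mutant library (up to 0.121 and 0.181), and Hoxa10 without WT A or mutant A (0.138 and 0.323). Hoxc13 and Hoxd10 in both conditions, and Hoxc9 with doxorubicin, passed in all 18 alternatives run.

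Other measurements moved with genotype in the same libraries. Xist, which silences an X chromosome in female cells, measured 0.276 ± 0.0234 CPM in WT control and 233 ± 29.5 CPM in mutant control, and the Y-linked Ddx3y at 546 ± 48.6 and 73.9 ± 0.0603 CPM, so embryo sex or its mixture and genotype cannot be told apart. The 10 neural markers summed to 1147 to 1153 CPM in WT control and to 1410 to 1417 CPM in mutant control libraries. Ncam1 made up most of this sum, and Pax6, Elavl3 and Sox10 were under 1 CPM in every group. The 10 cartilage and bone markers, led by Sox9, summed to 207 to 213 CPM in WT and 239 to 246 CPM in mutant control. They did not move as a set, and 7 were under 1 CPM in every group. Of the 3 expressed ones, Sox9 was called higher in mutant control cells (0.28 ± 0.08, adjusted p = 0.0300). Col2a1 was called lower there (-1.94 ± 0.39, adjusted p = 0.00256). With doxorubicin the neural sum was 580 to 737 CPM in WT and 873 to 876 CPM in mutant cells, against the control sums given above. The 14 macrophage and leukocyte markers summed to 35.9 to 37.1 CPM in WT control and 44.6 to 46.0 CPM in mutant control, and to 47.2 to 48.0 CPM in WT and 49.8 to 57.3 CPM in mutant cells with the drug. Of the 11 expressed ones, 2 (Cx3cr1 and Ptprc) were called higher in mutant control cells, where 2.77% of all rows were. With doxorubicin 1 (Csf1r) was higher in mutant cells (3.93% of all rows). The drug raised 5 of the 11 in WT (29.3% of all rows) and 0 in mutant cells (28.3%). None of the 11 was called for the difference of the responses (0.0895% of all rows). Their median log2 fold change was 0.38 in WT and 0.30 in mutant cells, so the responses are not shown to differ. C1qa, Cx3cr1, Aif1 and Laptm5 were under 1 CPM in every group. The part of these markers in the Hox results was not tested.

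Partners and regulators of Hox genes were read from lists, whose counts stand beside 27.9% of all rows called lower and 29.3% higher with doxorubicin in WT, and 25.7% and 28.3% in mutant cells. Of 10 expressed TALE cofactors, homeodomain proteins that bind DNA together with Hox proteins, 5 fell and 1 rose with doxorubicin in each genotype, a total near the 57.2% and 54% of all rows called, with a median log2 fold change of -0.32 in WT. Meis1 fell by 1.26 in WT and by 1.27 in mutant cells on the log2 scale, while Tgif1 rose by 0.65 and 0.67. Pknox2 was lower in mutant cells in control (-0.96 ± 0.23, adjusted p = 0.0138) and with doxorubicin (-2.02 ± 0.44, adjusted p = 0.00444), the only cofactor called between genotypes. Of 10 expressed genes of Polycomb complex PRC2, which keeps silent Hox genes marked, 5 fell and 1 rose in each genotype (median -0.24 in WT), again near the 57.2% and 54% of all rows. Suz12 fell by 0.81 in WT and Eed rose by 1.31, although both encode core subunits. Of 13 genes of PRC1, 4 fell and 2 rose in WT cells, and 3 fell and 2 rose in mutant cells (median -0.29 in WT), fewer in all than the 57.2% and 54% of all rows. The next list held the Trithorax group, which keeps Hox genes active, and partners, with Ctcf and Dot1l also on it. Of its 14 expressed genes, 6 fell and 1 rose in each genotype (median -0.25 in WT), near the 57.2% and 54% of all rows. Mll1, the founding member of that group and listed here under its older symbol, did not pass for the drug in WT (adjusted p = 0.993) and was higher in mutant cells in both conditions (0.51 ± 0.09 and 0.42 ± 0.10). Mllt3 was lower in both (-0.72 ± 0.08 and -0.48 ± 0.08), and Kdm6a, an X-linked demethylase gene, higher (0.68 ± 0.08 and 0.73 ± 0.08).

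Among 14 expressed genes of the retinoic acid pathway, a classical inducer of Hox genes, 4 rose and 2 fell with doxorubicin in WT, and 2 rose in mutant cells (median 0.22 in WT), below the 57.2% and 54% of all rows called. Aldh1a3, which makes retinoic acid, rose by 1.47 in WT and 1.07 in mutant cells. The 2 that fell in WT were Dhrs3 (-2.34), the largest change called there, and Aldh1a2 (-1.32). Neither passed in mutant cells. The difference of the responses was not called for Dhrs3 (2.41 ± 0.50, adjusted p = 0.0653) or Aldh1a2 (1.10 ± 0.52, adjusted p = 0.862). Between genotypes in control cells 2 were higher and 3 lower, where 2.77% and 3.17% of all rows were: Crabp1, a retinoic acid binding protein, was higher (1.05 ± 0.10), and Dhrs3 (-1.90 ± 0.30), Aldh1a1 (-1.11 ± 0.22) and Crabp2 (-0.67 ± 0.19) lower. Cdx1, Cdx2 and Cdx4, which switch on trunk Hox genes in the embryo, had no count. Of the 15 noncoding RNAs listed for the clusters, 8 were in the table and 2 were expressed. Hotair, a noncoding RNA of the Hoxc cluster, had 3 to 11 counts per library, and Hoxa11as, antisense to Hoxa11, 5 to 17, and neither passed any comparison.

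Genes bordering the clusters were not uniform. Of 10 expressed, 3 fell and 2 rose with doxorubicin in WT, and 4 fell and 2 rose in mutant cells (median -0.06 in WT), near the 57.2% and 54% of all rows called. Beside cluster a, Snx10 fell by 0.72 and Skap2 rose by 0.53 in WT cells, and Hibadh at the other end did not pass (0.08 ± 0.14). Beside cluster d, Lnp fell by 0.38 and Mtx2 did not pass in WT. None of the 10 was called between genotypes in control cells, and 1, Cbx5 beside cluster c, was higher in mutant cells with doxorubicin (0.26 ± 0.07, adjusted p = 0.0289). Of 33 expressed transcription factors of limb and trunk regions, 19 fell and 6 rose in WT cells and 16 fell and 6 rose in mutant cells (median -0.48 in WT), where 27.9% of all rows were lower and 29.3% higher in WT and 25.7% and 28.3% in mutant cells. Meox2 (-2.005), Hand2 (-1.93), Dlx5 (-1.92) and Tbx5 (-1.74), the last a forelimb factor, had the largest log2 changes among those called in WT. Between genotypes in control cells 7 of the 33 were higher and 4 lower in mutant cells (2.77% and 3.17% of all rows), with Irx1 (0.82 ± 0.17), Wt1 (0.73 ± 0.17) and Lhx8 (0.66 ± 0.19) higher and Foxf1 (-0.64 ± 0.10) lower.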

How the data were processed

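RNA of 8 libraries was quantified by the authors as raw read counts per gene name in 1 deposited table, with no normalization. Bowtie2, HTSeq and mm9 are named in the submitters' processing notes, and versions, annotation, strand setting and treatment of shared reads are not given in the sources used here, so genes with overlapping or antisense partners are uncertain. Libraries were mapped to groups by their titles.

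Rows with 10 or more counts in 2 or more libraries (12296 of 30419) were fitted in R 4.3.3 with edgeR 4.0.16, TMM factors and quasi-likelihood fits of all 8 libraries, each group having its own coefficient (4 residual degrees of freedom, biological coefficient of variation 0.0636). For each of 5 comparisons the Benjamini-Hochberg adjustment (two-sided tests) covered all rows, and genes were called under 0.05. The SE is the log2 fold change divided by the square root of F. The procedure was run on simulated data that had the same spread for all genes and groups. The spread of these libraries was unequal, so that run does not show how the test behaves on them.

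The members and lists were chosen with earlier results of these data known. Library values are given for Hox genes called in any comparison or with a group mean of 10 CPM or more, and other members by range. Of other lists the text names up to 4 called genes with the largest changes, plus some chosen after seeing their values (Meis1, Tgif1, Suz12, Eed, Mll1, Mllt3, Kdm6a, Cbx5, Snx10, Skap2, Hibadh, Lnp, Mtx2). Alternatives were DESeq2 1.42.0, limma-voom (limma 3.58.1), other size factors, filters and thresholds, a replicate block, a fit restricted to the 4 libraries of a comparison, and fits without 1 library each, where the lone library of a group is assumed to vary like the others. Some genes counted in the totals are not reported here by name. Symbols matched GENCODE M21 (GRCm38) for 39 of 39 Hox genes. RefSeq promoters are from GRCm38.p6.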

Additional observations from a re-analysis of the deposited data

How the results depend on the processing

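The count of Hox genes called for doxorubicin was 15 in WT and 16 in mutant cells. It stayed within 1.5 times of these under every alternative except the filter of 5 CPM in 2 libraries, which gave 10 in mutant cells because 15 Hox genes were left to test. Leaving out 1 library at a time gave 11 to 16 in WT and 13 to 17 in mutant cells. Of the called genes, 10 in each genotype passed in every alternative. The genotype count was 6 in control cells and 2 to 8 on leaving out 1 library (2 without WT control A, 3 without WT control B or either mutant control), and 7 with doxorubicin and 3 to 7 on leaving out 1 library (3 without WT or mutant doxorubicin A, 4 without mutant doxorubicin B). The test of the difference between responses called no Hox gene in any of the 17 alternatives, while over all rows it called 11 and, with no filter, 48, with DESeq2 19, with limma-voom 4, with 5 CPM in 2 libraries 5, with a threshold of 0.10 20, and 0 to 49 on leaving out 1 library (49 without WT doxorubicin B). No called gene changed direction. Across all 28 genes and comparisons 53 of the values under an alternative lost a call and 32 gained one.

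No shared effect of the A and B letters was seen: the correlation across genes of the A minus B differences between groups ran from -0.0286 to 0.0355. These values do not show whether libraries of the same letter were prepared together. With the letter as a replicate block the counts were 15, 17, 0, 6 and 7 in the order WT response, mutant response, difference, genotype in control and genotype with doxorubicin, and Hoxb9 in mutant cells was the only Hox call that changed. Genes under about 1 CPM, such as Hoxa2, Hoxa11, Hoxb5, Hoxb8 and Hoxd12, had SEs of 0.40 or more. Changes well above that size could also go uncalled at this depth. Examples are Hoxa2 with doxorubicin in WT (-1.06 ± 0.50, adjusted p = 0.0747) and Hoxd12 between genotypes in control cells (-0.95 ± 0.47, adjusted p = 0.341).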
